A study of Schizosaccharomyces pombe with 261 samples.

Results

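The experiment set polyadenylated RNA of wild-type fission yeast (Schizosaccharomyces pombe) after 25 min at 37.5 °C against that of the same strain at 0 min, taken at 30 °C without heating. The members, chosen by their titles, were 3 libraries of wild type (WT) at 25 min and 3 at 0 min of the submitters' series RNA1, 6 of 261 samples in all and 6 of 39 mRNA-seq libraries. The 3 WT libraries at 5 min of the same series were used to place the 25 min levels in time. Cells of every group grew in YES, a rich medium, to mid-log phase, and the heated cultures were then shaken in a 37.5 °C water bath. All of these libraries share the strain: mating type h+, with the alleles ade6-DN/N, leu1-32 and ura4-DS/E, and with the reporters imr1L::ura4+ and otr1R::ade6+, which put ura4+ and ade6+ into the silenced repeats of centromere 1. WT thus means wild type for the genes deleted in other strains of the series, not a strain free of markers. All 39 mRNA-seq libraries were fitted together in 13 groups, so standard errors and p-values rest on the scatter among replicates within all of these groups. The labels number the replicates 1 to 3 without saying whether they were separate cultures. Whether that scatter includes differences between cultures is therefore not known.

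Heat unfolds proteins, and fission yeast answers through a pair of routes. The trimeric transcription factor Hsf1, held inactive by chaperones in unstressed cells, activates chaperone genes through heat shock elements in their promoters. The mitogen-activated protein kinase Sty1 acts on the bZIP pair Atf1 and Pcr1, which binds CRE-like sites in front of genes for antioxidant enzymes, trehalose metabolism and the kinase's own phosphatases. Heat at this level also slows growth for a time, and in yeasts ribosome production is known to be cut back while cells adapt.

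Of 6172 genes tested, 4156 (67.3%) differed between 25 and 0 min at an adjusted p under 0.05 in edgeR's quasi-likelihood test with Benjamini-Hochberg adjustment over all genes; the words rose and fell are used below for genes that passed it. A change by so much is a log2 change with its standard error, and a mean level is given with its SD (n = 3). Higher levels at 25 min were called for 2090 genes (33.9%) and lower levels for 2066 (33.5%). Since calls were this common, a gene group is described by its counts and its median log2 change, beside a median of 0.02 and a median absolute change of 0.52 over all genes. The rises reached further than the falls: 336 genes rose and 84 fell by at least 4-fold, and 102 rose and 0 fell by at least 16-fold. The 102 genes together took 6.56, 8.51 and 7.06% of all counts in the 25 min libraries, against 0.128, 0.150 and 0.141% in the 0 min libraries. For 4441 genes (72.0%) the 3 libraries at 25 min did not overlap the 3 at 0 min. RNA was measured relative to the library total and from whole cultures, so less RNA per cell and fewer cells with an RNA cannot be told apart.

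Libraries held 9085181 to 11525470 counts in genes at 25 min, against 8693850 to 11348673 at 0 min and 6573143 to 12497197 at 5 min, and levels are given as counts per 1000000 counts (CPM) after TMM scaling. Replicate 3 at 0 min stood further from its group than any other library: chi-square per degree of freedom was 36.7 and 28.3 against its partners, 10.2 between these partners, and 8.38 to 19.3 among the 25 min libraries. Without it 2030 genes rose and 1950 fell. Counts in ribosomal RNA genes made up 0.00221 to 0.00367% of the 25 min libraries, whereas at 0 min they were 0.0465% of this library and 0.00352 and 0.00189% of its partners. The mitochondrially encoded genes SPMIT.05, SPMIT.06, SPMIT.07 and SPMIT.11 were also highest in this library, such as SPMIT.06 with 0.162, 0.517 and 5.90 CPM at 25 min, against 0.528, 0.530 and 30.9 CPM at 0 min. As in h+ cells, the M-factor genes mfm1, mfm2 and mfm3 were at no more than 1.62 CPM at 25 min and 1.94 CPM at 0 min. The P-cell genes map3 (25.3 to 28.9 CPM at 25 min, against 18.1 to 21.7 CPM at 0 min) and map4 (37.8 to 47.6 CPM at 25 min, against 27.5 to 43.4 CPM at 0 min) were expressed. The other markers were less clear. The P-factor gene map2 was low (5.38 to 8.18 CPM at 25 min, against 4.86 to 7.95 CPM at 0 min). It was not far from the M-cell receptor gene mam2 (3.21 to 4.54 CPM at 25 min, against 2.75 to 4.06 CPM at 0 min). The M-factor transporter gene mam1 was present too (76.1 to 81.9 CPM at 25 min, against 39.1 to 46.7 CPM at 0 min). The ura4 gene, carried as a reporter and as the allele ura4-DS/E, had 35.1 to 38.3 CPM at 25 min, against 72.6 to 90.3 CPM at 0 min and fell by 1.20 ± 0.10 (SE, adjusted p = 1.02e-12). The ade6 gene, carried as a reporter and as the allele ade6-DN/N, had 148 to 169 CPM at 25 min, against 230.5 to 281 CPM at 0 min and fell by 0.74 ± 0.10 (adjusted p = 8.73e-08). Counts per gene do not separate RNA of a reporter from any RNA of the allele.

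Chaperone genes held 10.75, 11.74 and 10.82% of all counts at 25 min, against 3.80, 3.74 and 3.505% at 0 min, and 24 of 41 tested rose while 15 fell. All 4 genes listed under small heat shock proteins and the disaggregase (hsp16, hsp20, hsp9 and hsp104) rose, with a median log2 change of 6.04. Of 9 genes of cytosolic Hsp70 and its cofactors 6 rose and 2 fell (median 0.97), and of 8 of Hsp90 and its cofactors 6 rose and 1 fell (median 2.08). All 8 subunits tested of the chaperonin CCT, the ring that folds actin and tubulin, fell (median -0.70).

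**Figure D1:**
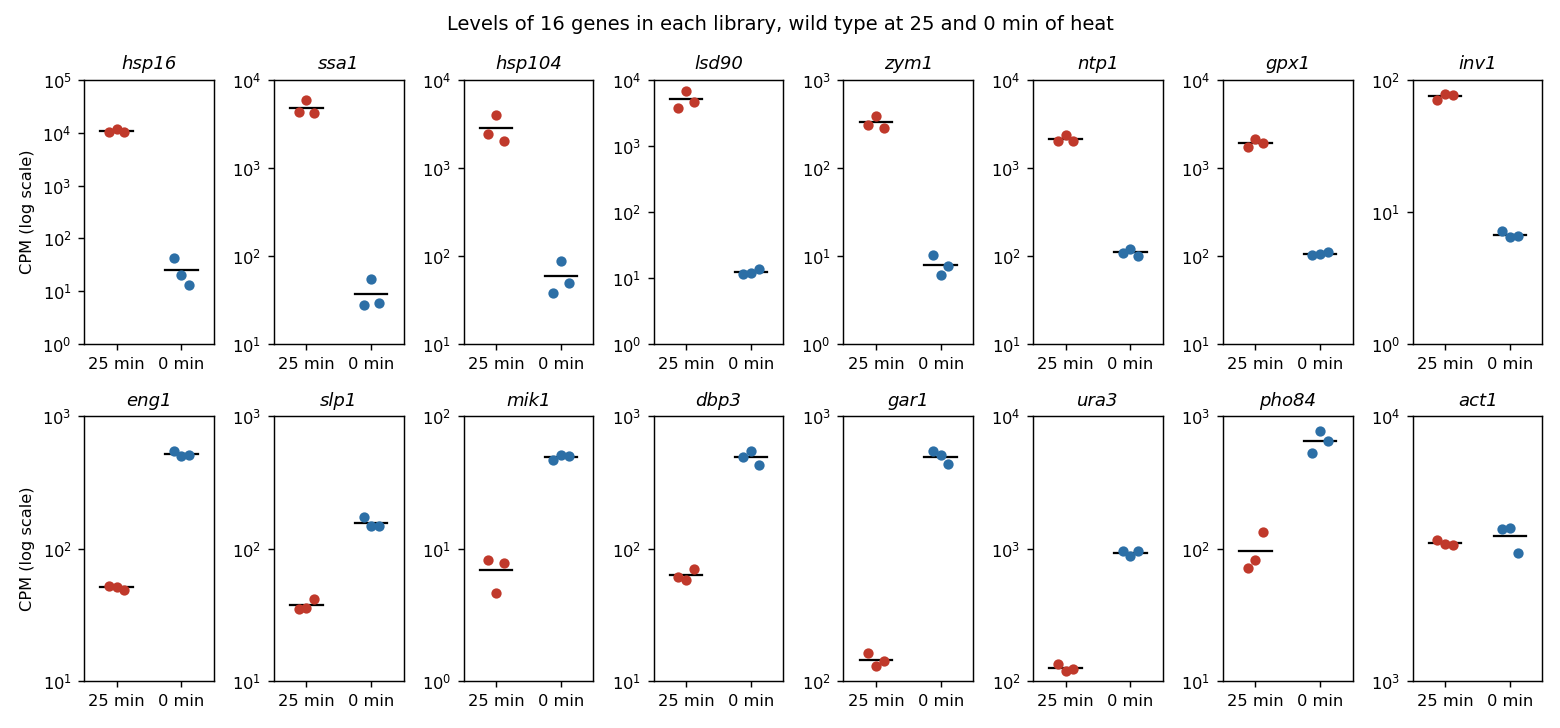
Levels of 16 genes in each library on a log axis of CPM, with 25 min left of 0 min, 1 point per library and a bar at the mean (n = 3). In the top row all 3 libraries at 25 min lie above those at 0 min, and in the bottom row the 25 min libraries of eng1, slp1, mik1, dbp3, gar1, ura3 and pho84 lie below, while those of act1 overlap.

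Hsp16, a small heat shock protein that binds unfolding proteins, had the largest rise of the 6172 genes. Its gene (chromosome II, 2660139 to 2660992 in build ASM294v2) had 10152, 11623 and 10089 CPM at 25 min, against 43.1, 20.1 and 12.9 CPM at 0 min, a log2 change of 8.70 ± 0.50 (SE, n = 3 against 3; adjusted p = 1.51e-16). The hsp9 gene, for another heat shock protein, had 7592, 7995 and 6325 CPM at 25 min, against 71.4, 98.4 and 69.4 CPM at 0 min. The groups of both genes were far apart, although hsp16 varied more among the 0 min libraries, where replicate 1 was highest. The small heat shock protein gene hsp20 had 330.3 to 337 CPM at 25 min, against 66.5 to 69.7 CPM at 0 min, a log2 change of 2.30 ± 0.10 (adjusted p = 7.98e-20). Hsp104, which pulls proteins out of aggregates, had 2405, 3995 and 1997 CPM at 25 min, against 38.5, 88.5 and 49.5 CPM at 0 min, a log2 change of 5.57 ± 0.31 (adjusted p = 6.93e-17). Its level at 25 min was lower than at 5 min, where it averaged 6475 ± 1947 CPM, with a log2 difference of -1.21 ± 0.26 (adjusted p = 1.39e-04).

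Among cytosolic Hsp70 genes, the heat-inducible ssa1 (chromosome I, 2295580 to 2297981) had 4275, 5853 and 4203 CPM at 25 min, against 27.6, 54.2 and 29.6 CPM at 0 min, a log2 change of 7.00 ± 0.31 (adjusted p = 2.59e-19). Its near-identical paralog ssa2 had 14969, 15073 and 13878 CPM at 25 min, against 5825, 5504 and 4648 CPM at 0 min, a log2 change of 1.46 ± 0.13 (adjusted p = 5.87e-12); reads shared by the paralogs may have been left out of both. The Hsp40 cochaperone gene psi1 had 2331, 2864 and 2339 CPM at 25 min, against 61.6, 96.7 and 67.9 CPM at 0 min. The gene fes1, for an exchange factor that resets Hsp70, had 1559, 1708 and 1602 CPM at 25 min, against 143, 125 and 92.2 CPM at 0 min. Their log2 changes of 5.06 ± 0.19 and 3.76 ± 0.12 left no overlap between the groups. The Hsp40 gene mas5 rose by 0.46 ± 0.10 (adjusted p = 2.74e-04) but was lower at 25 than at 5 min, with 988 ± 79.1, 2862 ± 149 and 1357 ± 41.3 CPM at 0, 5 and 25 min. Sks2, the Hsp70 that sits on ribosomes, moved the other way: its gene had 2293, 2427 and 2334 CPM at 25 min, against 7212, 6965 and 6417 CPM at 0 min, a log2 change of -1.55 ± 0.11 (adjusted p = 9.99e-14).

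Hsp90 itself had 13449, 14279 and 12971 CPM at 25 min, against 4829.9, 4471 and 3677 CPM at 0 min, a rise of 1.65 ± 0.11 (adjusted p = 2.73e-15). Among its cofactors, wis2, the cyclophilin that docks on Hsp90, had 3609.9, 3722 and 3251 CPM at 25 min, against 443, 409 and 289.6 CPM at 0 min (3.21 ± 0.12, adjusted p = 4.60e-21). The adaptor gene sti1 had 3509, 4087 and 3744 CPM at 25 min, against 527, 503 and 361 CPM at 0 min (3.027 ± 0.13). The gene aha1, for the activator of the Hsp90 ATPase, had 2009, 2083 and 1878 CPM at 25 min, against 319, 290.1 and 204 CPM at 0 min (2.88 ± 0.13). The p23 gene wos2 rose by 2.37 ± 0.10 and the kinase-client cochaperone gene cdc37 by 1.795 ± 0.07, whereas the cofactor gene cns1 fell by 0.48 ± 0.10 (adjusted p = 6.71e-05).

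In mitochondria, the disaggregase gene hsp78 had 3521, 4846 and 3489 CPM at 25 min, against 104, 135 and 89.1 CPM at 0 min, a log2 change of 5.17 ± 0.21 (adjusted p = 2.51e-20). The chaperonin genes mcp60 and hsp10 and the Hsp70 gene ssc1 rose by 0.87 ± 0.13, 1.18 ± 0.10 and 0.69 ± 0.10. Mge1, the exchange factor of that Hsp70, differed from them: its gene had 117, 119 and 119.6 CPM at 25 min, against 300.2, 314 and 326 CPM at 0 min, a log2 change of -1.41 ± 0.07 (adjusted p = 4.83e-18). In the endoplasmic reticulum, 3 of 6 genes rose and 3 fell. The oxidase gene ero11 (1.999 ± 0.11), the Hsp70 gene bip1 (1.404 ± 0.13) and the calnexin gene cnx1 (1.15 ± 0.11) rose, and the second oxidase gene ero12 (-0.72 ± 0.08), the disulfide isomerase gene pdi1 (-0.39 ± 0.07) and the Hsp40 gene scj1 (-0.37 ± 0.06) fell. Among CCT genes, cct6 had 229, 219 and 224 CPM at 25 min, against 464, 456 and 409 CPM at 0 min, a log2 change of -0.98 ± 0.08 (adjusted p = 2.01e-12), and the smallest fall was that of cct1 (-0.46 ± 0.10).

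The promoters of ssa1 and wis2 held a heat shock element, searched on both strands as 3 alternating units of GAA and its complement TTC with 2 bases between units, in the 300 bases before the gene start of the RefSeq annotation. That of ssa1 is shown because it had the largest rise among the 4 of 41 chaperone genes whose window held it. The sequence is from RefSeq (build ASM294v3, 5′ to 3′ on the gene's strand, here the minus strand, chromosome I), at I:2297982-2298264, and the capitals mark the element. In the deposited annotation (ASM294v2) many genes start further upstream, so of each window only the part outside the deposited coding genes is printed here and below.
ssa1: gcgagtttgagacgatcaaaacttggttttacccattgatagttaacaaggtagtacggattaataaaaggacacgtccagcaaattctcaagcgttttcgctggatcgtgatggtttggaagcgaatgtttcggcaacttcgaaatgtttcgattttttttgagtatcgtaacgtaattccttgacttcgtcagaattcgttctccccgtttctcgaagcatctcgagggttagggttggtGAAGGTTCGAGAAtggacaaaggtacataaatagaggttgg
The element began 58 bases before the RefSeq start of ssa1, which lies 17 bases inside the deposited gene. Over all 4972 promoters of tested coding genes the element was found in 24 (0.483%), and in the chaperone list in 4 of 41 (9.76%). Of the 24 genes, 16 rose and 3 fell, with a median log2 change of 0.42, against -0.05 for the genes without it. The windows of hsp16, hsp104 and hsp9 did not hold these letters.

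Of 11 genes of the stress kinase cascade 3 rose and 3 fell (median 0.01), where 67.3% of all genes were called. The sty1 gene had 284, 292 and 322 CPM at 25 min, against 282, 304 and 305 CPM at 0 min, groups that overlapped (0.01 ± 0.08, adjusted p = 0.921). Wis1, the kinase that activates Sty1, had 76.9, 67.4 and 63.6 CPM at 25 min, against 122, 138 and 165 CPM at 0 min, a log2 change of -1.03 ± 0.13 (adjusted p = 3.86e-08). Srk1, a kinase that Sty1 activates, had 243, 334 and 238 CPM at 25 min, against 109.8, 84.1 and 83.0 CPM at 0 min, a rise of 1.56 ± 0.20 (adjusted p = 2.71e-08), after 589.9 ± 30.6 CPM at 5 min. Of 6 phosphatase genes of stress signalling 2 rose and 2 fell (median 0.24). Those that rose were ptc1 and pyp1, for phosphatases that act on Sty1. The ptc1 gene had 243, 257 and 248 CPM at 25 min, against 70.4, 78.9 and 65.2 CPM at 0 min, a rise of 1.802 ± 0.12 (adjusted p = 4.20e-15), and pyp1 rose by 0.88 ± 0.18.

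Several genes of this pathway were lower at 25 than at 5 min, in a comparison that called 58.1% of all genes and shares the 25 min libraries. Its median over all genes was 0.01 with TMM scaling and 0.27 with library totals, so small differences between 25 and 5 min depend on the scaling. The phosphatase gene pyp2, a target of Atf1, averaged 19.2 ± 1.51, 531 ± 169.8 and 26.5 ± 7.21 CPM at 0, 5 and 25 min, and its 25 min libraries overlapped those at 0 min (log2 change 0.47 ± 0.30, adjusted p = 0.168, and 0.043 in a fit that adds the replicate number as a term, called a replicate block). The zinc finger gene rsv2 averaged 36.8 ± 15.9, 849 ± 120.4 and 135 ± 28.5 CPM at 0, 5 and 25 min, and rose at 25 against 0 min by 1.88 ± 0.27 (adjusted p = 1.88e-07). The factor gene atf1 had 431, 474 and 406 CPM at 25 min, against 118, 127 and 146 CPM at 0 min. Its partner gene pcr1 had 113, 138 and 121 CPM at 25 min, against 54.0, 67.6 and 70.9 CPM at 0 min. Both rose at 25 against 0 min, atf1 by 1.74 ± 0.13 and pcr1 by 0.95 ± 0.16, and both were lower at 25 than at 5 min, with log2 differences of -0.72 ± 0.12 for atf1 and -1.55 ± 0.16 for pcr1. The hsf1 gene, looked up after the values were seen, had 192, 221 and 199.9 CPM at 25 min, against 170.3, 175 and 200.4 CPM at 0 min and was not called (log2 change 0.16 ± 0.11, adjusted p = 0.188). Of 15 transcription factor genes of stress signalling, 8 rose and 3 fell.

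RNA-binding regulators gave both directions. Vip1, an RNA-binding protein, had 2191, 2254 and 2077 CPM at 25 min, against 440.1, 409.6 and 386 CPM at 0 min, a rise of 2.40 ± 0.13 (adjusted p = 2.67e-17). Rnc1, which stabilises the RNA of a phosphatase of the cell integrity pathway, had 204, 186 and 186 CPM at 25 min, against 492, 443 and 529.8 CPM at 0 min, a log2 change of -1.35 ± 0.10 (adjusted p = 1.05e-13), and the decay helicase gene upf1 fell by 0.92 ± 0.08. The groups of all 3 genes were apart.

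Trehalose, a sugar that protects proteins in hot cells, had 4 of 4 genes higher, with a median of 2.80. The trehalase gene ntp1 (chromosome II, 206580 to 209641), which breaks trehalose down, had 2044, 2349.9 and 1992 CPM at 25 min, against 108, 120.1 and 101 CPM at 0 min, a log2 change of 4.28 ± 0.16 (adjusted p = 3.25e-21). The synthase gene tps1 had 2309, 2686 and 2405 CPM at 25 min, against 201, 213 and 149 CPM at 0 min (3.71 ± 0.21, adjusted p = 1.42e-16), and the phosphatase genes tpp1 and tps2 rose by 1.88 ± 0.11 and 0.62 ± 0.08. All 4 were also higher at 25 than at 5 min. In glycerol metabolism, the dehydrogenase gene gpd1 had 4774, 5039 and 4567 CPM at 25 min, against 714, 805 and 603 CPM at 0 min, a rise of 2.76 ± 0.16, while its paralog gpd2 fell by 0.99 ± 0.11, and gld1, for the glycerol dehydrogenase that uses glycerol up, rose by 3.38 ± 0.25.

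Enzymes that remove peroxides rose in 5 of 6 cases (median 2.18). The catalase gene ctt1 had 1289.2, 1794 and 1527 CPM at 25 min, against 80.5, 81.5 and 75.3 CPM at 0 min, a log2 change of 4.28 ± 0.27 (adjusted p = 1.77e-15). The glutathione peroxidase gene gpx1 had 1729, 2127 and 1912 CPM at 25 min, against 104, 105 and 112 CPM at 0 min. The peroxiredoxin genes pmp20 and tpx1 rose by 2.498 ± 0.22 and 1.86 ± 0.21. The sulfiredoxin gene srx1, which repairs Tpx1, averaged 19.0 ± 0.170, 131 ± 8.30 and 24.3 ± 3.28 CPM at 0, 5 and 25 min and was not called at 25 against 0 min (adjusted p = 0.132, and 0.019 with a replicate block). The mitochondrial superoxide dismutase gene sod2 had 488, 503 and 497 CPM at 25 min, against 139, 128 and 117 CPM at 0 min (1.95 ± 0.09), and the cytosolic sod1 rose by 0.85 ± 0.28 (adjusted p = 0.00773). Among thioredoxins and glutaredoxins 3 of 9 rose and 4 fell: grx1 rose by 2.60 ± 0.16 and trx1 by 1.76 ± 0.14, and grx4, of iron sensing, fell by 1.26 ± 0.08 and the mitochondrial trx2 by 1.03 ± 0.13. Of 6 glutathione genes 2 rose and 2 fell (median 0.12), and 1 rose without replicate 3 at 0 min or replicate 2 at 25 min. The largest rise among the 6 was that of the transferase gene gst3, by 2.57 ± 0.10. The gene gnd1 of the NADPH-producing pentose phosphate pathway had 6148, 6210 and 5618 CPM at 25 min, against 2053, 1861 and 1298 CPM at 0 min (1.79 ± 0.16).

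Genes of metal handling did not share a direction, with 8 of 30 tested up and 9 down. The metallothionein gene zym1 had 309, 389.6 and 285 CPM at 25 min, against 10.3, 6.093 and 7.64 CPM at 0 min, a rise of 5.35 ± 0.20 (adjusted p = 3.44e-21), most of it after 5 min, where it averaged 24.6 ± 2.82 CPM. The zinc transporter genes zhf1 and zrt1 fell by 1.12 ± 0.08 and 0.89 ± 0.16. Calcium pump gene cta3 had 40.8, 93.0 and 52.0 CPM at 25 min, against 3.70, 3.002 and 3.77 CPM at 0 min, a rise of 4.14 ± 0.35 (adjusted p = 2.44e-12), and the vacuolar pump gene pmc1 rose by 1.05 ± 0.16. In iron uptake, the siderophore transporter gene str1 had 21.7, 31.2 and 26.2 CPM at 25 min, against 233, 197 and 178 CPM at 0 min, a log2 change of -2.94 ± 0.29 (adjusted p = 6.80e-11), and the reductive uptake gene fip1 fell by 1.89 ± 0.51 (adjusted p = 0.0016), while sib1 and sib2, which make the siderophore ferrichrome, rose by 0.76 ± 0.13 and 1.09 ± 0.15. Genes of phosphate uptake fell in 4 of 5 cases (median -1.65): the transporter gene pho84 had 71.6, 82.1 and 135 CPM at 25 min, against 529.8, 781 and 652 CPM at 0 min, and the acid phosphatase genes pho1 and pho4 fell by 2.88 ± 0.51 and 1.65 ± 0.12. In pho1 the 0 min libraries were uneven, replicate 1 lying lowest of 211, 519 and 580.1 CPM.

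Several of the largest rises were of genes outside these lists. The lsd90 gene had 3787, 6738 and 4684 CPM at 25 min, against 11.4, 12.01 and 13.8 CPM at 0 min, a log2 change of 8.68 ± 0.53 (adjusted p = 8.55e-16). The stress gene ddr48, whose namesake in budding yeast responds to DNA damage and heat, had 1187, 2275 and 1589 CPM at 25 min, against 3.78, 4.68 and 4.38 CPM at 0 min (8.62 ± 0.47). SPBC24C6.09c, annotated as a phosphoketolase, had 590.1, 931 and 658 CPM at 25 min, against 4.22, 3.71 and 3.36 CPM at 0 min (7.58 ± 0.36). In all 3 the lowest 25 min library was over 100 times the highest 0 min library. SPAC4H3.08, annotated as a dehydrogenase of hydroxyacyl-CoA, had 372, 549 and 572 CPM at 25 min, against 5.28, 4.59 and 4.89 CPM at 0 min, and was also higher at 25 than at 5 min by 4.76 ± 0.17 (adjusted p = 6.87e-21). SPAC4H3.03c, annotated as a glucan glucosidase and lying near it on chromosome I, had 286, 375 and 317 CPM at 25 min, against 3.70, 3.18 and 2.34 CPM at 0 min (6.71 ± 0.30). The rtc3 gene, of the SBDS family, rose by 6.71 ± 0.29 and was already at 2526 ± 317 CPM at 5 min. The uncharacterised SPCC338.18 rose by 6.32 ± 0.31. The rds1 gene had 4332, 5617 and 4641 CPM at 25 min, against 62.4, 109 and 130.1 CPM at 0 min (5.597 ± 0.42), and SPBC1289.14, annotated as an adducin, had 41.1, 56.6 and 45.4 CPM at 25 min, against 0.704, 0.442 and 1.22 CPM at 0 min (5.92 ± 0.31).

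The CRE-like site, TGACGT on either strand, was searched in the same 300 bases. The promoters of ntp1, gpd1 and ctt1 are shown with the site in capitals, as those with the largest rises among the named genes whose site lies outside the deposited coding genes. They lie at II:206281-206579 and II:4035266-4035565 on the plus strand and at III:58866-59096 on the minus strand of ASM294v3.
ntp1: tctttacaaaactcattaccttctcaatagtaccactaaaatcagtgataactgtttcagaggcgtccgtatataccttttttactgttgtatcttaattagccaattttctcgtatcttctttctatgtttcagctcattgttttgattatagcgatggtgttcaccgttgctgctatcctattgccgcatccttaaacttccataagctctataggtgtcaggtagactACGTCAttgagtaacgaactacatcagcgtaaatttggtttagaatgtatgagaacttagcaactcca
gpd1: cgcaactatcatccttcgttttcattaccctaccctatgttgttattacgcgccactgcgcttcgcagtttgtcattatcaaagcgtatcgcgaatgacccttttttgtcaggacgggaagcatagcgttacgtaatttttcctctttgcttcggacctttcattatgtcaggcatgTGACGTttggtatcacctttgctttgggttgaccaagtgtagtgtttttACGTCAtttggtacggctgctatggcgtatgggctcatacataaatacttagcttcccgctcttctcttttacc
ctt1: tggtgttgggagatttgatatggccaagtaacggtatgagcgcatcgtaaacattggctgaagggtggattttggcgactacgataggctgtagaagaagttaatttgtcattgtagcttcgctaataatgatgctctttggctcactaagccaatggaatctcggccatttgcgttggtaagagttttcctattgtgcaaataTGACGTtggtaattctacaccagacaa
The site began 69 bases before the RefSeq start of ntp1, 123 and 74 bases before that of gpd1 and 59 bases before that of ctt1. It was found in 46 of 180 coding genes that rose by at least 4-fold (25.6%), in 125 of 1391 that rose by less (8.99%), in 70 of 1499 that were not called (4.67%), in 56 of 1837 that fell by less than 4-fold (3.05%) and in 5 of 65 that fell by more (7.69%). Over all 4972 promoters the share was 6.07%. The 302 genes with the site had a median log2 change of 0.45 and 171 of them rose (56.6%), against a median of -0.07 and 30.0% of the genes without it. The windows of gpx1, lsd90 and hsp16 did not hold it.

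**Figure D2:**
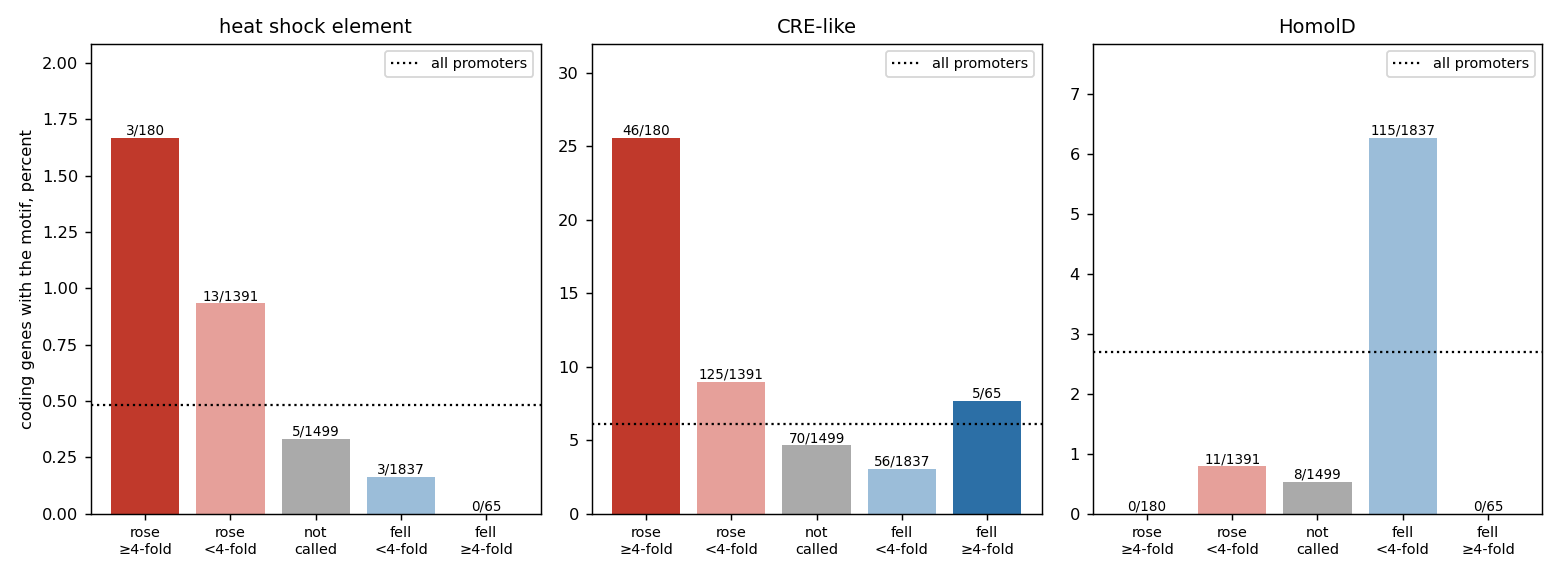
Percent of coding genes with a motif in the 300 bases before their start, by their change at 25 against 0 min, with the genes holding it and all genes of the class above each bar and a dotted line at the share of all 4972 promoters. The CRE-like site was in 25.6% of genes that rose by at least 4-fold, and HomolD in 115 of 1837 genes that fell by less than 4-fold.

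Genes that glucose normally represses rose together, 5 of 5 with a median of 2.18, and all 5 were also higher than at 5 min. The gld1 gene, named above with glycerol metabolism, is among them. The site CCCCTC on either strand, of the Rst2 and Scr1 type, was in 0 of these 5 promoters and in 96 of all 4972 (1.93%). Of the 96 genes 35.4% rose, against 31.5% of the genes without the site. Invertase (inv1), which splits sucrose, had 69.8, 78.6 and 76.6 CPM at 25 min, against 7.13, 6.45 and 6.62 CPM at 0 min, a rise of 3.47 ± 0.20 (adjusted p = 9.65e-17). Fructose bisphosphatase (fbp1), of gluconeogenesis, had 26.7, 27.2 and 28.9 CPM at 25 min, against 7.04, 4.95 and 6.21 CPM at 0 min, a rise of 2.18 ± 0.12 (adjusted p = 1.41e-16). Hexose transporter genes, which have similar sequences, gave both directions: ght2 and ght3 rose by 1.90 ± 0.16 and 2.08 ± 0.24, and ght8 fell by 1.37 ± 0.11. In glycolysis 7 of 13 fell and 4 rose. The enolase gene eno102, of a pair of paralogs, had 47.9, 112 and 90.2 CPM at 25 min, against 2.64, 6.53 and 4.89 CPM at 0 min, a rise of 4.15 ± 0.34. The glyceraldehyde phosphate dehydrogenase gene gpd3 had 387, 617 and 533 CPM at 25 min, against 106, 121 and 78.7 CPM at 0 min, a rise of 2.32 ± 0.32. Fermentation genes split between paralogs: the decarboxylase gene pdc101 fell by 1.10 ± 0.16 and its paralog pdc201 rose by 2.90 ± 0.23, with 54.4, 80.6 and 49.7 CPM at 25 min, against 10.7, 6.98 and 7.03 CPM at 0 min. Alcohol dehydrogenase adh1 fell by 0.995 ± 0.16 and adh4 by 2.82 ± 0.12.

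Mitochondrial energy genes rose by small amounts. Of 36 tested, 22 rose and 1 fell, with a median of 0.31. The malate dehydrogenase gene mdh1 had 799, 898 and 782 CPM at 25 min, against 201, 185 and 175 CPM at 0 min, a rise of 2.14 ± 0.13 (adjusted p = 5.58e-16), and the isocitrate dehydrogenase genes idh1 and idh2 rose by 0.73 ± 0.06 and 0.77 ± 0.09. Of 9 ATP synthase genes 8 rose (5 without replicate 1 at 25 min), among them atp5 by 0.86 ± 0.14 and atp14 by 0.61 ± 0.09. Of 15 genes of the respiratory chain 8 rose, such as rip1 of complex III by 0.59 ± 0.11.

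Nutrient-response genes rose in 34 of 51 cases and fell in 7 (median 0.60), and against 5 min 23 of them were higher and 10 lower. Autophagy, the delivery of cell contents to the vacuole, gave 16 of 18 higher and 0 lower (median 0.93). Its scaffold gene atg17 had 141, 148 and 137 CPM at 25 min, against 49.8, 59.0 and 57.2 CPM at 0 min, a rise of 1.36 ± 0.09 (adjusted p = 8.49e-15). The lipid kinase gene pik3 rose by 1.04 ± 0.08, and atg14 by 1.15 ± 0.11. The vacuolar protease gene isp6 had 761, 744 and 558 CPM at 25 min, against 105, 118 and 101 CPM at 0 min, a rise of 2.67 ± 0.20. The permease gene isp5 had 31.5, 31.4 and 31.3 CPM at 25 min, against 11.8, 11.6 and 10.2 CPM at 0 min, a rise of 1.49 ± 0.17 after a lower level at 5 min (5.30 ± 1.21 CPM). Glutamine synthetase (gln1) went down, with 84.1, 64.6 and 72.5 CPM at 25 min, against 414, 461 and 381 CPM at 0 min, a log2 change of -2.503 ± 0.16 (adjusted p = 3.14e-15). Of the kinases that report nutrients, pka1, the cAMP-dependent kinase, had 324, 373 and 316 CPM at 25 min, against 78.9, 73.8 and 79.1 CPM at 0 min (2.13 ± 0.10, adjusted p = 2.55e-18). The gene cgs1, for its inhibitory subunit, had 80.7, 90.0 and 59.6 CPM at 25 min, against 14.96, 22.7 and 16.1 CPM at 0 min (2.10 ± 0.27). Both subunit genes of this kinase thus rose, and the eIF2 kinase gene gcn2 rose by 0.56 ± 0.09.

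Genes of protein breakdown rose broadly and by little. Of 17 genes of the proteasome's lid and base 14 rose and 0 fell (median 0.66), and of 13 of its core 10 rose and 0 fell (median 0.41). The base ATPase gene rpt6 had 235, 273 and 257 CPM at 25 min, against 116, 139 and 122 CPM at 0 min (1.02 ± 0.09), the deubiquitinase gene rpn11 rose by 1.02 ± 0.10, and the core gene pre3 by 0.74 ± 0.09. The segregase gene cdc48, which pulls proteins from complexes, had 3912, 3990.3 and 3564 CPM at 25 min, against 1124, 1209.9 and 899.8 CPM at 0 min, a rise of 1.83 ± 0.12 (adjusted p = 7.20e-15), and its cofactor genes npl4 and ufd1 rose by 1.21 ± 0.07 and 1.29 ± 0.10. Ubiquitin genes split by type: the polyubiquitin gene ubi4 had 389.9, 378 and 300.2 CPM at 25 min, against 121, 118 and 116 CPM at 0 min (1.59 ± 0.09), whereas ubi2 and ubi5, which fuse ubiquitin to ribosomal proteins, fell by 1.32 ± 0.13 and 1.20 ± 0.13.

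**Figure D3:**
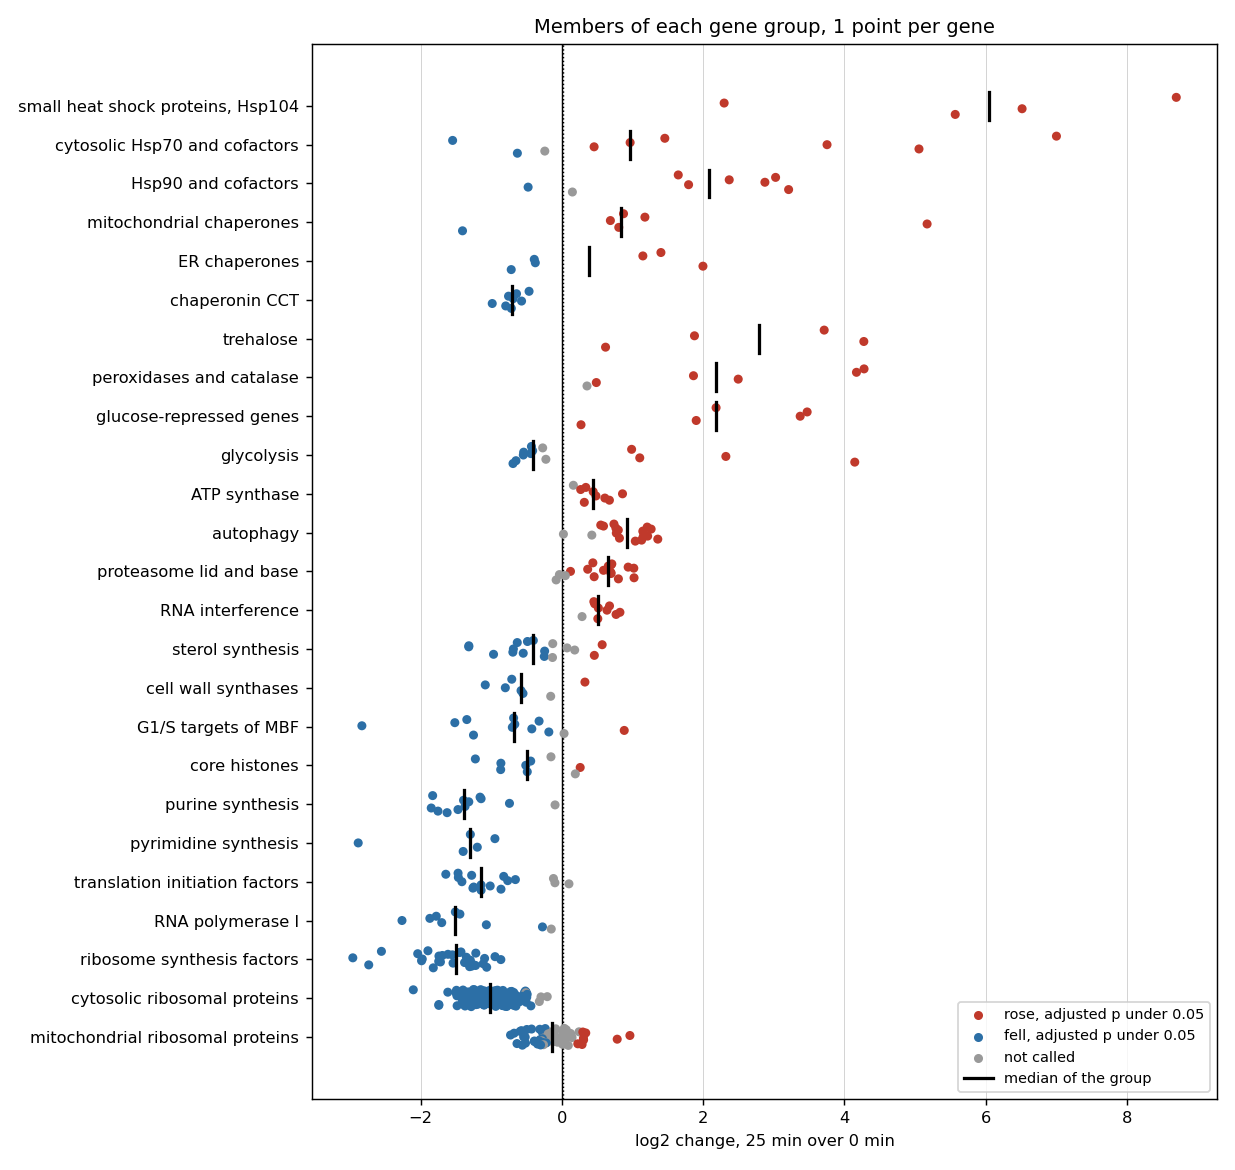
Log2 change at 25 against 0 min of every tested member of 25 gene groups, 1 point per gene, red for rose, blue for fell and grey for not called, with a bar at the group median and a dotted line at the median of all genes. Medians run from 6.04 for small heat shock proteins and Hsp104 to -1.51 for RNA polymerase I.

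Genes of ribosome production fell with few exceptions. Of 30 genes for snoRNPs and processing factors all 30 fell (median -1.49), of 9 for RNA polymerase I 8 fell and 0 rose (median -1.51), and of 138 for cytosolic ribosomal proteins 134 fell and 0 rose (median -1.01). Ribosomal protein genes took 7.29, 7.34 and 7.38% of counts at 25 min, against 14.7, 14.7 and 12.3% at 0 min. The RNA helicase gene dbp2, outside these lists, had 49.8, 48.2 and 56.0 CPM at 25 min, against 779.5, 669 and 664 CPM at 0 min, a log2 change of -3.78 ± 0.22 (adjusted p = 1.57e-16). The gene dbp3, of ribosome assembly, had 61.2, 58.1 and 69.7 CPM at 25 min, against 491, 546 and 432 CPM at 0 min, a log2 change of -2.96 ± 0.19 (adjusted p = 3.50e-15). Fibrillarin, the methylase of ribosomal RNA (fib1), had 247, 261 and 258 CPM at 25 min, against 1020.1, 1013 and 818 CPM at 0 min, and the pseudouridylation gene nhp2 fell by 2.04 ± 0.11. The polymerase I subunit gene nuc1 had 231, 219 and 217 CPM at 25 min, against 647, 661 and 589 CPM at 0 min (-1.51 ± 0.11). In none of these genes did the groups overlap, as in 72.0% of all genes, and dbp2 was named on that condition. Much of the fall of dbp3 was present at 5 min, where it averaged 87.2 ± 10.2 CPM.

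Among ribosomal proteins, rps2601 had 148, 123 and 144 CPM at 25 min, against 562, 549 and 674 CPM at 0 min, a log2 change of -2.10 ± 0.09 (adjusted p = 9.63e-20). The gene rpl901 had 642, 615 and 631 CPM at 25 min, against 1696, 1621 and 1473 CPM at 0 min, a log2 change of -1.34 ± 0.10. Many members come in near-identical paralogs, so single members are uncertain. The promoter of rpl901, chosen after the motifs were seen, is shown for its HomolD box (CAGTCACA, either strand, in capitals), the core element of ribosomal protein genes in fission yeast; it lies on the minus strand at I:2284258-2284481, the box beginning 48 bases before the RefSeq start.
rpl901: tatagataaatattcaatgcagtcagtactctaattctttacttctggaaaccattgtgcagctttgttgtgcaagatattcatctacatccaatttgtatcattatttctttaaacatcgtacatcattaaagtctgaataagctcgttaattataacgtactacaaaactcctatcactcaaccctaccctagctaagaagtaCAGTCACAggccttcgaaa
HomolD was found in 88 of 138 ribosomal protein promoters (63.8%), against 134 of all 4972 (2.70%). Of those 134 genes 115 fell and 11 rose, with a median of -0.95. Of mitochondrial ribosomal protein genes, 27 of 75 fell and 8 rose, with a median of -0.14; 16 fell when libraries were scaled by their totals alone.

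Translation factors fell with the ribosome. All 6 elongation factor genes and 14 of 17 initiation factor genes fell, with medians of -0.90 and -1.14, and 0 rose. The elongation factor gene tef3 had 2432, 2405 and 2351 CPM at 25 min, against 7404, 7515 and 5998 CPM at 0 min, a log2 change of -1.54 ± 0.16 (adjusted p = 3.17e-10). The gene tif11, for an initiation factor that scans for start codons, had 170.0, 163 and 177 CPM at 25 min, against 486, 579 and 526 CPM at 0 min, a log2 change of -1.64 ± 0.10 (adjusted p = 4.45e-16). RNA polymerase II subunits fell in 10 of 12 cases, led by rpb8, a subunit shared by the 3 polymerases, with 31.0, 25.4 and 33.7 CPM at 25 min, against 138, 142 and 129.9 CPM at 0 min (-2.18 ± 0.13), whereas rpb2 rose by 0.36 ± 0.08. Polymerase III genes fell in 9 of 15 cases and rose in 3, among them its repressor gene maf1 (0.83 ± 0.12, adjusted p = 1.83e-07).

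Biosynthesis of nucleotides and amino acids went down too, in 38 of 47 genes, with 3 up. Of 12 purine genes 11 fell (median -1.38), such as gua1 of GMP synthesis, with 388, 389 and 372 CPM at 25 min, against 1419.6, 1414 and 1036 CPM at 0 min (-1.75 ± 0.17). All 5 pyrimidine genes fell (median -1.29), led by ura3, the dihydroorotate dehydrogenase, with 135, 119.6 and 123 CPM at 25 min, against 959, 874 and 952 CPM at 0 min, a log2 change of -2.88 ± 0.09 (adjusted p = 1.20e-22). The pyrimidine genes include ura4 and the purine genes ade6, which this strain carries as reporters in centromeric repeats, so these 2 do not stand for the genes at their own loci. All 7 branched-chain genes fell, ilv3 by 1.30 ± 0.12. The gene met26, which makes methionine, had 1956, 1699 and 1760.1 CPM at 25 min, against 5777, 5340.1 and 4754 CPM at 0 min (-1.55 ± 0.10). These genes were not uniformly down within a pathway: met11 rose by 0.29 ± 0.07, and the purine gene ade7 had 197 to 227 CPM at 25 min, against 201 to 246 CPM at 0 min and was not called unless replicate 3 at 0 min (adjusted p = 0.0252) or replicate 1 at 25 min (0.0393) was left out.

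Genes of lipid and wall synthesis mostly fell. Sterol genes fell in 11 of 17 cases and rose in 2 (median -0.40), with erg11, the lanosterol demethylase, at 354, 281 and 293 CPM at 25 min, against 761, 705 and 846 CPM at 0 min (-1.32 ± 0.11), and erg1, the squalene epoxidase, up by 0.57 ± 0.11 (adjusted p = 2.13e-05). All 5 fatty acid synthesis genes fell (median -0.70), the desaturase gene ole1 by 0.70 ± 0.16. The glucan synthase genes bgs1, bgs3 and bgs4 fell by 0.71 ± 0.13, 1.08 ± 0.12 and 0.80 ± 0.12. Of 11 genes of the wall integrity pathway 2 rose and 5 fell (median -0.21). The kinase genes pck1 and mkh1 rose by 0.98 ± 0.08 and 0.93 ± 0.08, and the pathway's last kinase gene pmk1 fell by 0.81 ± 0.09. The glucanosyltransferase genes gas1 and gas2 went opposite ways. The gas1 gene had 383, 312 and 365 CPM at 25 min, against 1158, 1112 and 1039.7 CPM at 0 min (-1.64 ± 0.15). The gas2 gene had 1687, 1846 and 1702 CPM at 25 min, against 672, 711 and 768 CPM at 0 min (1.28 ± 0.10).

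Cell separation genes were among the deepest falls. Eng1, the glucanase that dissolves the septum, had 52.5, 51.5 and 48.9 CPM at 25 min, against 550.2, 503 and 509 CPM at 0 min, a log2 change of -3.35 ± 0.12 (adjusted p = 3.25e-21). Agn1, which opens the wall around the septum, fell by 1.34 ± 0.13. Most of the fall of eng1 came after 5 min, with averages of 521 ± 25.6, 369 ± 43.1 and 51.0 ± 1.86 CPM at 0, 5 and 25 min. The cts2 gene, annotated as a chitinase, had 52.4, 55.8 and 49.0 CPM at 25 min, against 419, 371 and 399.8 CPM at 0 min, a log2 change of -2.92 ± 0.13.

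**Figure D4:**
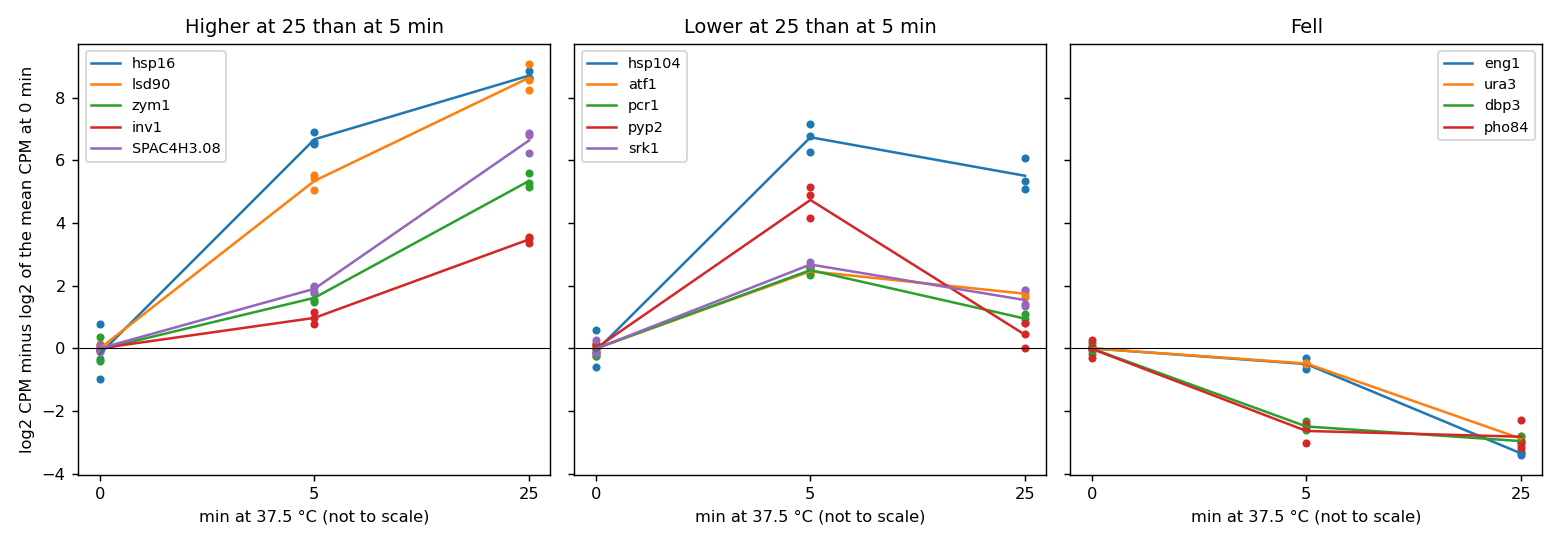
Log2 CPM at 0, 5 and 25 min relative to the mean at 0 min for 14 genes, with 1 point per library and lines through the group means; the time axis is not to scale. In the left panel genes are higher at 25 than at 5 min, in the middle panel lower, and in the right panel eng1 and ura3 fall mainly between 5 and 25 min while dbp3 and pho84 are already low at 5 min.

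The cell cycle genes had 25 of 38 lower and 5 higher (median -0.38). Of 12 G1/S genes under the factor MBF, 10 fell and 1 rose, among them cdt1, which licenses replication, with 11.0, 8.28 and 12.4 CPM at 25 min, against 25.4, 27.8 and 27.5 CPM at 0 min (-1.34 ± 0.11). The kinase gene mik1, which holds back mitosis, had 8.18, 4.66 and 7.73 CPM at 25 min, against 46.5, 51.5 and 50.2 CPM at 0 min. The rise was that of ctp1, for a nuclease that processes DNA breaks, with 55.8, 61.3 and 56.9 CPM at 25 min, against 31.6, 32.8 and 29.9 CPM at 0 min (0.88 ± 0.08). Among MBF factors, the activator gene rep2 fell by 1.19 ± 0.08 while the subunit genes cdc10 and res2 rose by 0.92 ± 0.09 and 1.20 ± 0.13. The anaphase activator gene slp1 had 35.2, 35.7 and 41.5 CPM at 25 min, against 174, 149 and 149 CPM at 0 min, a log2 change of -2.07 ± 0.10 (adjusted p = 5.73e-18), and cdc15, of the division ring, fell by 1.12 ± 0.10. The cdc22 gene, for the large subunit of ribonucleotide reductase, had 203, 200.4 and 219.8 CPM at 25 min, against 611, 606 and 563 CPM at 0 min (-1.51 ± 0.13). Its promoter is shown for its MCB boxes (ACGCGT, either strand, in capitals); it was chosen after the motifs were seen and lies on the plus strand at I:4226670-4226957, the boxes beginning 62 and 52 bases before the RefSeq start.
cdc22: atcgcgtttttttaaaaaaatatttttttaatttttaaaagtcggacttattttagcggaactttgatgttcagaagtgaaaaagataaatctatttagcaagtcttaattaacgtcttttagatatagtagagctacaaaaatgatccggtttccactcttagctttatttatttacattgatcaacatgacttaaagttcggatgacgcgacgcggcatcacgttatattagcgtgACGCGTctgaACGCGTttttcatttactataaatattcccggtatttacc
MCB was in 7 of the 12 G1/S promoters (58.3%), against 145 of 4972 (2.92%). Over all 145 genes the median change was -0.06, close to -0.05 for the rest.

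Core histone genes fell in 6 of 9 cases and rose in 1 (median -0.49). Histone genes share a promoter box, AACCCT on either strand, found in 9 of 9 core histone windows and in 474 of all 4972 (9.53%). The same letters were in 43 of 138 ribosomal protein promoters (31.2%). Over all 474 genes the median change was -0.08, close to -0.04 for the rest. The box is shown in capitals for hht1, for histone H3, on the plus strand at I:4699545-4699690, where copies began 80 and 74 bases before the RefSeq start.
hht1: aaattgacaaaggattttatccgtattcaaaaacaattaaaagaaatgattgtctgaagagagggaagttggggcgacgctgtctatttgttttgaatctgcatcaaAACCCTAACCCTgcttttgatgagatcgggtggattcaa
The hht1 gene had 277, 284 and 319 CPM at 25 min, against 551, 567 and 482 CPM at 0 min, a log2 change of -0.86 ± 0.09 (adjusted p = 4.18e-10), and its divergent partner hhf1, for H4, fell by 0.87 ± 0.14. Of the pair of H2A genes, hta2 had 217, 235 and 246 CPM at 25 min, against 568, 565 and 496 CPM at 0 min (-1.22 ± 0.13), while hta1 had 408, 428 and 402 CPM at 25 min, against 468, 514 and 394 CPM at 0 min, groups that overlapped. The H3 gene hht3 was the member that rose, by 0.26 ± 0.10 (adjusted p = 0.0168), a call lost without replicate 3 at 0 min (adjusted p = 0.07) or replicate 2 at 25 min (0.149). Copies of a histone gene are near-identical, so their single values are uncertain.

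Of 23 heterochromatin genes 13 rose and 3 fell (median 0.29). The RNA interference machinery, which makes small RNAs from centromeric repeats, had 8 of 9 higher and 0 lower (median 0.52): the RNA-dependent polymerase gene rdp1 had 107, 127 and 125 CPM at 25 min, against 65.7, 83.8 and 74.7 CPM at 0 min (0.68 ± 0.08), and the helicase gene hrr1 and the RITS subunit gene tas3 rose by 0.64 ± 0.10 and 0.82 ± 0.16. Of 8 genes of the methyltransferase complex CLRC and HP1 proteins 2 rose and 2 fell. The methyltransferase gene clr4 had 75.3, 82.7 and 77.9 CPM at 25 min, against 49.99, 49.98 and 53.3 CPM at 0 min, a rise of 0.62 ± 0.08 (adjusted p = 6.69e-08). The HP1 gene swi6 fell by 0.43 ± 0.12 (adjusted p = 0.00155). Of 6 genes of the deacetylase complex SHREC, with sir2 and epe1, 3 rose and 1 fell. The remodeller gene mit1 rose by 0.70 ± 0.13 (adjusted p = 1.61e-05), and epe1 by 0.25 ± 0.11 (adjusted p = 0.0487), a call lost when any of the 6 libraries was left out. The deacetylase gene sir2 had 22.9, 17.5 and 25.4 CPM at 25 min, against 53.0, 49.7 and 41.6 CPM at 0 min, a log2 change of -1.13 ± 0.11 (adjusted p = 1.52e-10). Of the machinery that removes meiotic RNAs, 6 of 8 genes fell and 0 rose, such as mmi1 by 0.81 ± 0.07 and the exosome gene rrp6 by 0.80 ± 0.10. Of 10 meiotic targets of Mmi1, all with under 25 CPM, 5 rose (3 without replicate 2 at 0 min) and 0 fell, among them spo5 with 6.40, 6.83 and 6.38 CPM at 25 min, against 2.82, 2.38 and 4.38 CPM at 0 min. The mating genes byr2 and map1 rose by 1.30 ± 0.12 and 1.57 ± 0.24.

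Of 1537 long non-coding RNAs, 1110 passed the filter on low counts, which the libraries of a single group could satisfy. RNAs high only at 25 min could thus enter, so the share that rose may be tilted upwards, by an amount not measured. Of 1110 long non-coding RNAs tested, 502 rose (45.2%) and 154 fell (13.9%), with a median log2 change of 0.46, against 1571 (31.6%) and 1902 (38.3%) of 4972 coding genes, with a median of -0.05. Those with at least 50% of their length over a gene on the opposite strand (757) had a median of 0.53, with 371 up and 100 down, and the other 353 had 0.32, with 131 up and 54 down. The largest rise was that of SPNCRNA.1475 (chromosome II, 1904423 to 1905778), annotated as a possible alternative UTR, which lies on the strand opposite tra1 and had 22.5, 30.1 and 23.0 CPM at 25 min, against 0.264, 0.0883 and 0.306 CPM at 0 min, a log2 change of 6.79 ± 0.38 (adjusted p = 9.09e-17). SPNCRNA.1527, between pom152 and gas2, had 20.7 ± 9.81 CPM at 25 min, against 0.210 ± 0.129 CPM at 0 min (6.51 ± 0.51). SPNCRNA.1273, opposite ski3 of RNA decay, had 71.8, 88.3 and 75.8 CPM at 25 min, against 2.11, 2.56 and 1.73 CPM at 0 min (5.19 ± 0.27). SPNCRNA.1529, opposite the replication origin gene orc1, had 61.4, 51.2 and 45.9 CPM at 25 min, against 1.23, 1.68 and 1.32 CPM at 0 min (5.21 ± 0.27). The genes opposite them, looked up after the values were seen, had smaller log2 changes, of 0.81 for tra1, 0.95 for ski3 and -0.15 for orc1. The largest fall was that of SPNCRNA.1069, opposite SPNCRNA.1068, with 2.51, 1.24 and 2.61 CPM at 25 min, against 20.4, 19.9 and 23.3 CPM at 0 min (-3.29 ± 0.22, adjusted p = 6.83e-15).

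Some opposite-strand partners moved apart. SPNCRNA.1505 covers SPBC24C6.09c, the phosphoketolase gene that rose by 7.58 ± 0.36, and had 14.1, 12.8 and 9.57 CPM at 25 min, against 40.0, 42.6 and 41.9 CPM at 0 min, a log2 change of -1.76 ± 0.12 (adjusted p = 7.25e-15). SPNCRNA.1602 fell by 2.35 ± 0.16 and hop1, the meiotic gene opposite it, chosen after its values were seen, had 4.78, 2.48 and 3.87 CPM at 25 min, against 1.496, 1.06 and 1.53 CPM at 0 min (1.46 ± 0.35, adjusted p = 4.75e-04). Over 831 pairs of such an RNA and an opposite coding gene, 153 had both up and 152 had the RNA up with the gene down. In 33 pairs the RNA fell and the gene rose, and in 30 both fell. The gene was not called in 126 pairs with a rising RNA and in 42 with a falling RNA. Where the RNA was not called, the gene rose in 113 pairs, fell in 111 and was not called in 71. Over all tested coding genes 31.6% rose and 38.3% fell, so these counts do not set the pairs apart from coding genes at large. The labels do not state which strand column of the counts was taken, and 0.709 to 1.03% of reads were set aside as ambiguous in these libraries. Some genes covered on the other strand, such as SPBC24C6.09c, keep values that move against their partner's. Such a pair cannot show whether a small share of reads was counted on the wrong strand. That share would weigh most on a low RNA opposite a high gene, and it was not tested.

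**Figure D5:**
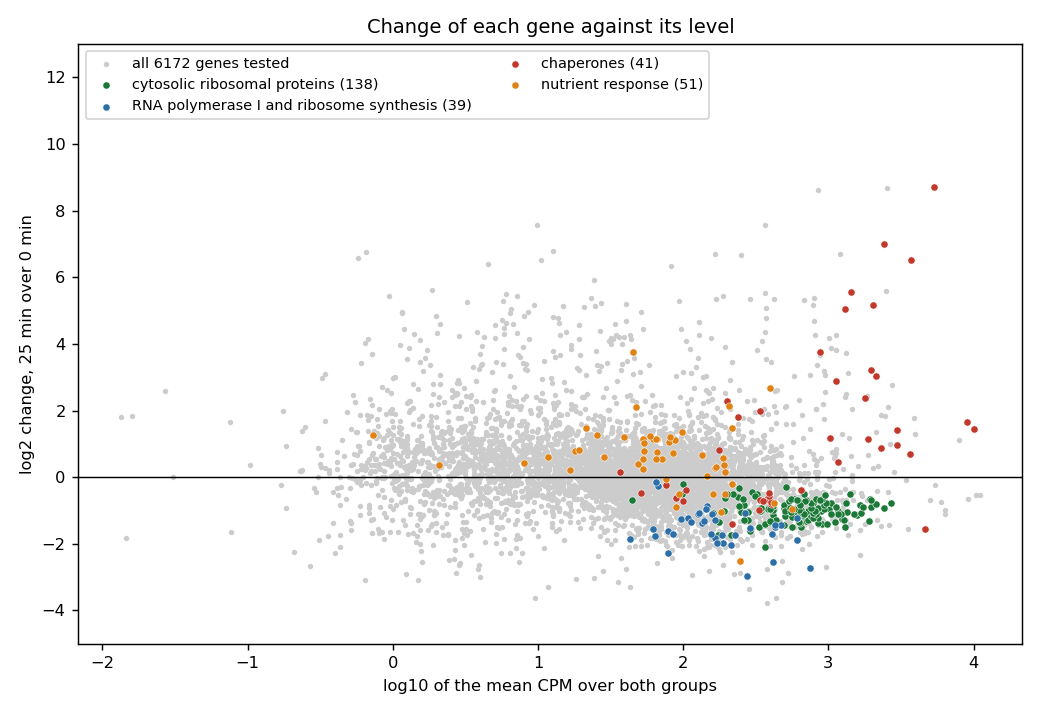
Log2 change at 25 against 0 min of each tested gene against log10 of its mean CPM over both groups, grey for all genes (3 without a count in either group are not drawn) and coloured for 4 lists. Chaperones spread from -1.55 to 8.70, and all ribosomal protein genes lie below 0.

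Other genes with deep falls belonged to none of the groups above. SPAC8E11.10, annotated as a sorbose reductase, had 86.0, 46.3 and 64.3 CPM at 25 min, against 909, 834 and 693 CPM at 0 min, a log2 change of -3.63 ± 0.18 (adjusted p = 5.73e-18). Ani1, a prolyl isomerase of the FKBP type, had 103, 91.9 and 99.7 CPM at 25 min, against 879.8, 846 and 869 CPM at 0 min (-3.14 ± 0.21). The F-box gene pof15 had 5.10, 3.52 and 7.35 CPM at 25 min, against 39.5, 41.0 and 49.7 CPM at 0 min, and was lower still at 5 min (2.74 ± 0.516 CPM). The GTPase gene guf1, next to wis2, had 4.38, 3.10 and 4.25 CPM at 25 min, against 31.4, 31.7 and 34.9 CPM at 0 min, a log2 change of -3.05 ± 0.14 (adjusted p = 1.22e-18). The groups did not overlap in these 4 genes, which was a condition for naming them and held for 72.0% of all genes.

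Genes often used to normalise qPCR were not all level. Actin (act1) had 3398, 3292 and 3275 CPM at 25 min, against 3764, 3781 and 3056 CPM at 0 min, groups that overlapped (log2 change -0.09 ± 0.12, adjusted p = 0.51). Tubulin genes nda2, nda3 and atb2 fell by 1.14 ± 0.08, 0.63 ± 0.10 and 0.57 ± 0.09. The TATA-binding protein gene tbp1 had 455, 437 and 429.9 CPM at 25 min, against 187, 228 and 198 CPM at 0 min, a rise of 1.11 ± 0.09 (adjusted p = 5.24e-13).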

How the data were processed

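The values are raw counts of RNA-seq reads per gene, deposited by the authors with 1 file for each library and with summary lines for unmapped, multi-mapping, unassigned and ambiguous reads, which were left out of library sizes. Per the submitters' processing notes, the tools were STAR, deepTools, Bowtie 0.12.9, Trimmomatic 0.33 and bedtools 2.17.0, with build ASM294v2; their order and the strand setting are not given in the sources used here. Per the labels' protocols, polyadenylated RNA was taken by hot phenol and made into libraries with the KAPA mRNA HyperPrep kit. Multi-mapping reads were 9.28 to 11.8% of the 25 min libraries and 9.04 to 17.3% of the 0 min libraries and are listed apart from the gene counts, so near-identical genes may lose reads.

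Genes were tested with edgeR 4.0.16 in R 4.3.3 by its quasi-likelihood F-test over 39 libraries (13 groups, 26 residual degrees of freedom), after filterByExpr (at least 10 counts) and TMM scaling, with Benjamini-Hochberg adjustment over 6172 genes. Fold changes are fitted log2 values with their standard errors. Alternatives were other scalings, no filter, DESeq2 1.42.0, other libraries in the fit, a replicate block and leaving out each library. Deviations from the group means correlated between 25 and 0 min libraries of the same number (r = 0.42, 0.23 and 0.32 over 4960 genes). They correlated at -0.31 to 0.04 between others, where values below 0 arise because deviations from a mean of 3 sum to 0. As each same-number value was over 0.1, the numbers were treated as pairs in the replicate block, with which 2344 genes rose and 2290 fell. Unless a block is named, the values reported come from the fit without it, in which 2090 genes rose and 2066 fell.

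Members and lists were chosen with earlier results of these data known. Named genes are the 15 largest rises and falls with a mean of at least 10 CPM and no overlap, members of the lists, and the leading non-coding RNAs. Of 649 listed names 636 matched; 4 were wrong and dropped, and mam2 and map3 had been put under the wrong mating type and were moved. RefSeq annotation of ASM294v3 matched 6845 of 7015 gene IDs; gene positions are those deposited, on ASM294v2. Other libraries are not analysed here beyond sharing the fit. Some genes of the lists are not reported here.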

Additional observations from a re-analysis of the deposited data

How the results depend on the processing

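Over the settings tried, 0 results reversed, and the count of genes that differed between 25 and 0 min ran from 3908 to 4634, against 4156 reported. Leaving out each library in turn gave 3908 to 3983 genes, of which 1900 to 2030 rose and 1950 to 2067 fell. Of 207 of the genes named it gave 192 to 195, against 194. With a replicate block, 4634 genes differed, 198 of them among those named, and 4342 in a fit of the 6 libraries alone. The comparison of 25 with 5 min gave 3180 to 3334 genes when each library was left out, 1490 to 1606 of them higher and 1690 to 1777 lower. Scaled by library totals alone it gave 2767 higher and 1069 lower, in place of 1755 and 1829, and the cause was not tested. Of 2881 comparisons of a named gene with its value under another setting, 2853 kept their side of the threshold, and 197 genes kept it in all. The exceptions were SPMIT.05, SPMIT.06, SPMIT.07, ade7, pyp2 and srx1, which were called in some setting, and hht3, map3, mfm2 and epe1, whose call was lost when 1 library was left out, that of epe1 also with DESeq2, its size factors or no filter. Counts of members moved by over 1.5 times in 10 groups of few genes or small changes. The filter on low counts ran over 39 libraries, so some genes tested here had few counts at 25 and 0 min. Genes high only at 25 min could pass it through that group alone, which can favour rises among genes of low level.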

Other observations

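At the wis2 locus the neighbours moved apart. Genes guf1 and wis2 lie in a row on the minus strand, guf1 (chromosome I, 4931258 to 4933788) first, and wis2 (chromosome I, 4929854 to 4931230) rose by 3.21 ± 0.12 while guf1 fell by 3.05 ± 0.14. The antisense RNA SPNCRNA.1036 (chromosome I, 4929567 to 4931302), which covers all of wis2 and the end of guf1, had 29.3, 37.9 and 12.95 CPM at 25 min, against 2.46, 4.24 and 4.38 CPM at 0 min (2.85 ± 0.39, adjusted p = 9.38e-08). The wis2 gene was far higher than this RNA in both groups. Whether a small share of wis2 reads was counted on the wrong strand, and so added to SPNCRNA.1036, was not tested. SPNCRNA.1037, over the body of guf1, had 5.43, 5.59 and 6.48 CPM at 25 min, against 1.23, 0.883 and 1.02 CPM at 0 min (2.46 ± 0.32, adjusted p = 2.84e-08). Both were looked up after the values of guf1 were seen.

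Coding genes with and without introns had medians close to each other. Of 2436 tested coding genes with an intron 701 rose and 948 fell, with a median log2 change of -0.08, and of 2536 without 870 rose and 954 fell, with a median of -0.01. Of the Tf2 retrotransposons, 3 of 13 copies passed the filter; Tf2-2 had 5.02, 3.31 and 2.90 CPM at 25 min, against 2.29, 1.59 and 1.63 CPM at 0 min, a rise of 1.03 ± 0.28 (adjusted p = 0.0015); 2 copies rose with a replicate block. These copies are near-identical, so their reads cannot be assigned with certainty.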
